A study of Mus musculus and Rattus norvegicus with 28 samples.

Results

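The comparison covers chromatin accessible in cardiomyocytes at postnatal day 3 (P3) against embryonic day 18.5 (E18.5), measured by ATAC-seq, in which a transposase inserts sequencing adaptors wherever DNA is open. It uses 4 of the 28 samples of the series, 2 libraries at E18.5 and 2 at P3, with the RNA-seq libraries of the same ages (2 each) as an independent readout. Each sample was left ventricle of wild-type C57BL/6 mice, males and females, with no treatment. Cells were loosened overnight in trypsin, released with collagenase and plated on uncoated dishes, and those that did not attach were taken as cardiomyocytes, 50000 cells per ATAC-seq library. The methods call the 2 libraries of an age biological replications and do not say whether they came from different litters, so the spread given here is that between libraries.

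Peaks of the 4 lists that overlapped by at least 1 bp were merged into regions. A region was gained when both P3 libraries and neither E18.5 library held a peak in it, lost in the opposite case, and common when all 4 libraries held one. Because the lists differ in length, the main counts are also given for lists of equal length, the top 13149 peaks of each library by their −log10 q, which is the length of the shortest list. A region was called promoter when its midpoint lay within 2.5 kb of a transcript start. These groupings are descriptions of 2 libraries against 2. An exact permutation test of 2 against 2 cannot go below p = 0.33, so no p is given for the presence of a peak. Heights at regions that all 4 libraries share were tested across all such regions at once.

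Open chromatin marks the promoters and enhancers at which transcription factors displace nucleosomes. In heart muscle, MEF2 factors drive contractile genes together with GATA4, NKX2-5 and TBX5, whereas AP1 (dimers of JUN and FOS proteins), TEAD factors (partners of YAP) and RUNX factors act at distal enhancers in many cell types, among them fibroblasts and dividing or stressed cardiomyocytes. Around birth the ventricle moves from a low-oxygen, glucose-burning state towards fatty acid oxidation, and its matrix and non-muscle cells expand.

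The sequences below are windows of 100 bp either side of a peak summit (GRCm38, the mm10 build, plus strand). The first 4 are regions gained at P3 that ranked among the strongest P3 peaks, shown for the words more frequent in gained regions. Each holds an AP1 word, and all but the Trpm6 window hold a TEAD word. The other 4 are regions lost at P3 that hold the MEF2 word. Capitals mark an AP1 word (TGACTCA or TGAGTCA), a TEAD word (ACATTCC on either strand) or a MEF2 word, the 10-base consensus searched under that name. Among all 24885 regions of the equal lists on assembled chromosomes, 16.9% held an AP1 word in such a window, 6.77% a TEAD word and 2.1% a MEF2 word, and 19.7%, 7.77% and 2.16% of the 98650 regions of the full lists did so. A match to letters is a description and not a binding site.
Gained, Asb5, chr8:54548420-54548620: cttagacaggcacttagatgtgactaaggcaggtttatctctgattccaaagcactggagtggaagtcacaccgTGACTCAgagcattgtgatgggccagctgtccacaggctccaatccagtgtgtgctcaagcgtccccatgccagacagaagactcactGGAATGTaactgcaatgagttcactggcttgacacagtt
Gained, Pgm2 intron, chr5:64112438-64112638: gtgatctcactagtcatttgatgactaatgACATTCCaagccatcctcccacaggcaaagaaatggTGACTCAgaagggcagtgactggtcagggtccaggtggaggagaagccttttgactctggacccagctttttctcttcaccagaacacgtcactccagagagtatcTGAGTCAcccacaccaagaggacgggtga
Gained, Trpm6 intron, chr19:18890349-18890549: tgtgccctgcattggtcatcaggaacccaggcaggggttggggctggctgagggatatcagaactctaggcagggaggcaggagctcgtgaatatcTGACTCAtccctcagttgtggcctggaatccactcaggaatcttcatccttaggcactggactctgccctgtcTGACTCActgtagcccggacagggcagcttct
Gained, Gm29683 intron near Nr2f2, chr7:70267134-70267334: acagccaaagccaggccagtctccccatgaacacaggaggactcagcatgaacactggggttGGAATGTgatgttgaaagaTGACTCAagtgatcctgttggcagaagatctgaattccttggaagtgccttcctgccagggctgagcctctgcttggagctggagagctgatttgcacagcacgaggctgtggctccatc
Lost, upstream of Csrp3, chr7:48848356-48848556: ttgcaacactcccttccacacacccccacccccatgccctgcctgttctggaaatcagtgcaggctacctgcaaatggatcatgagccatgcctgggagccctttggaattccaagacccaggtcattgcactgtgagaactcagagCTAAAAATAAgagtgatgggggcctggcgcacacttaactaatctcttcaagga
Lost, Rbm20 intron, chr19:53697724-53697924: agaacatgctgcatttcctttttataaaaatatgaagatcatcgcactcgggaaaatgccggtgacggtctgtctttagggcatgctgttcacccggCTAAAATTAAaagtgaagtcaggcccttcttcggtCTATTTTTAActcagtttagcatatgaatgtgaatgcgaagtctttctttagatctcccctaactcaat
Lost, between genes near Nppb, chr4:147963774-147963974: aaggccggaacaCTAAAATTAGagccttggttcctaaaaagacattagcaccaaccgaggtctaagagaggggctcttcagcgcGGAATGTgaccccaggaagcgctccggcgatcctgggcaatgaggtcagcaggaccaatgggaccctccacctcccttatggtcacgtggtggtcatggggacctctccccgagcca
Lost, between genes near Wdr70, chr15:7857587-7857787: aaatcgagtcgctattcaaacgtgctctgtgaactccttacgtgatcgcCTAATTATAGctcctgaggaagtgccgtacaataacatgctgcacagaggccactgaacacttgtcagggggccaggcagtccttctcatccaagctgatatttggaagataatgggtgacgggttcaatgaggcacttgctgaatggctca

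The E18.5 lists held 13149 and 14910 peaks and the P3 lists 95257 and 52040, and read depths of the ATAC-seq libraries are not given in the sources used here. They covered 5.39 and 5.27 Mb at E18.5 against 38.8 and 23.8 Mb at P3. The last peak within the top 13149 stood at a −log10 q of 1.35 and 3.01 at E18.5 and of 26.1 and 16.7 at P3, so lists of equal length compare weak E18.5 peaks with strong P3 peaks. P3 replicate 1 stood apart, since 43766 of the 98813 merged regions (44.3%) held a peak in it alone. In the equal lists the Jaccard index (regions shared over regions in either list) was 0.517 within E18.5, 0.562 within P3 and 0.277 to 0.415 between the ages. The RNA-seq libraries held an estimated 29320000 and 34110000 aligned reads at E18.5 and 37400000 and 34760000 at P3, from the ratio of deposited coverage to FPKM (fragments scaled to transcript length and library size, a level per length) at 150 bases a read.

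In the full lists, 35531 of 98813 regions were gained at P3 (36.0%), 119 were lost (0.120%) and 9040 were common (9.15%). In the equal lists, 3483 of 24942 regions were gained (14.0%), 2104 were lost (8.44%) and 4796 were common (19.2%). Of the lost regions, 1816 (86.3%) did have a peak in both full P3 lists, at median ranks 29979 and 20465, and 102 (4.85%) had none, so most of the equal-length loss was a fall in rank. The 119 regions of the full lists are those where a peak was missing at P3. The reverse check says little, because the full E18.5 lists are hardly longer than the equal ones, and 3412 gained regions (98%) had no peak in either of them. The balance of gained and lost in the equal lists depended on which libraries were asked for. Without E18.5 replicate 1 there were 4199 gained and 5437 lost, and without replicate 2 there were 3943 and 4815, where a lost region needs a peak in 1 library and a gained one in 2. The number of lost regions of the full lists was 2407 without E18.5 replicate 1, 400 without replicate 2 and 307 without P3 replicate 1, and that of gained regions was 79948 without P3 replicate 2.

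Gained regions of the equal lists lay mostly away from promoters. With equal lists, 19.32% of gained regions lay at promoters, with a 95% interval by Wilson's method of 18.05 to 20.67 that covers counting alone, against 71.48% of lost (69.52 to 73.37), 84.28% of common (83.22 to 85.28) and 52.02% of all regions. The median distance from a transcript start was 10974 bp for gained, 171 bp for lost and 101 bp for common regions. In the full lists the promoter share was 26.56% of gained, 31.09% of lost (37 of 119) and 82.85% of common regions, against 32.17% of all, so gained and lost regions lay near the share of all regions there. Within the top 13149 peaks of a library the promoter share was 47.5% and 58.3% at P3 against 77.5% and 66.5% at E18.5.

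Some of the gained regions that ranked highest at P3 are given with the RNA of the tested gene nearest to them. The first gained promoter region was at −1801 bp from a start of Asb5 (a minus marks upstream), a ubiquitin ligase adaptor, with a fold enrichment (the peak caller's ratio of reads to local background) of 15.01 and 17.6 in the 2 P3 libraries, at ranks 85 and 130. Asb5 RNA was 0.58 and 1.41 FPKM at E18.5 and 7.55 and 6.78 at P3, a log2FC on the log2(FPKM + 1) scale of 2.06 ± 0.21 (SE; limma adjusted p = 0.0002). In a Pgm2 intron the fold enrichment was 16.0 and 16.1, and Pgm2, a phosphopentomutase, had 12.3 and 5.78 FPKM at E18.5 and 16.7 and 15.5 at P3, which did not pass the call (log2FC 0.85). The region at the Heatr5a start had fold enrichments of 13.5 and 15.01 and RNA of 4.04 and 3.24 against 13.9 and 14.4 FPKM, without overlap between the ages (log2FC 1.71 ± 0.16, adjusted p = 0.000124).

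Away from promoters, the region in the Trpm6 intron held ranks 55 and 39 at P3, with fold enrichments of 14.96 and 18.2, and no peak at E18.5. Its nearest tested gene, D030056L22Rik, 177198 bp away, had 19.3 and 21.0 FPKM at E18.5 and 12.9 and 12.5 at P3 (log2FC −0.62 ± 0.14, adjusted p = 0.0066), short of the fold set for a call. The region in the Gm29683 intron had fold enrichments of 17.9 and 18.7. Its nearest tested gene was Nr2f2, 88016 bp away, an orphan nuclear receptor of atrial, venous and stromal cells, with 5.19 and 3.02 FPKM at E18.5 and 9.67 and 10.7 at P3 (log2FC 1.16 ± 0.22, adjusted p = 0.00348). A gained region in an intron of Il1rl1, the IL-33 receptor gene, had fold enrichments of 15.9 and 18.2. A further one lay 16916 bp from S100a11, a calcium-binding protein gene whose RNA was 267 and 215 FPKM at E18.5 and 1032 and 1002 at P3 (log2FC 2.08 ± 0.17, adjusted p = 7.31e-05). The region next to Larp4b, an RNA-binding protein gene, had fold enrichments of 16.1 and 16.99, and Larp4b RNA of 15.9 and 7.28 against 9.25 and 10.02 FPKM overlapped between the ages.

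Genes with a gained promoter region carried more RNA at P3. Across all 13979 genes tested, 1814 were called higher at P3 (13.0%) and 1241 lower (8.88%), at adjusted p under 0.05 and a log2FC beyond 1 in size, with a median log2FC of 0.16. Genes were grouped by their gained, lost and common promoter regions, and could also hold regions of other patterns, such as a peak in a single library. Of the 267 genes with gained and no lost or common promoter regions in the equal lists, 85 were higher (31.8%) and 8 lower (3%), with a median of 0.59. Of the 2932 such genes of the full lists, 628 were higher (21.4%) and 227 lower (7.74%). Genes with lost and no gained or common promoter regions in the equal lists stood near the background. Of 1295, 125 were higher (9.65%) and 138 lower (10.7%), with a median of 0.08. With a median-of-ratios scaling of the RNA values the median of all genes moved to −0.02, and the share of calls that were higher went from 59.4% to 45.7%, against 71.9% from TPM, while the gained genes stayed above the background of each scaling (25.1% against 9.78% higher with median-of-ratios, 44.9% against 21.9% with TPM).

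**Figure D1:**
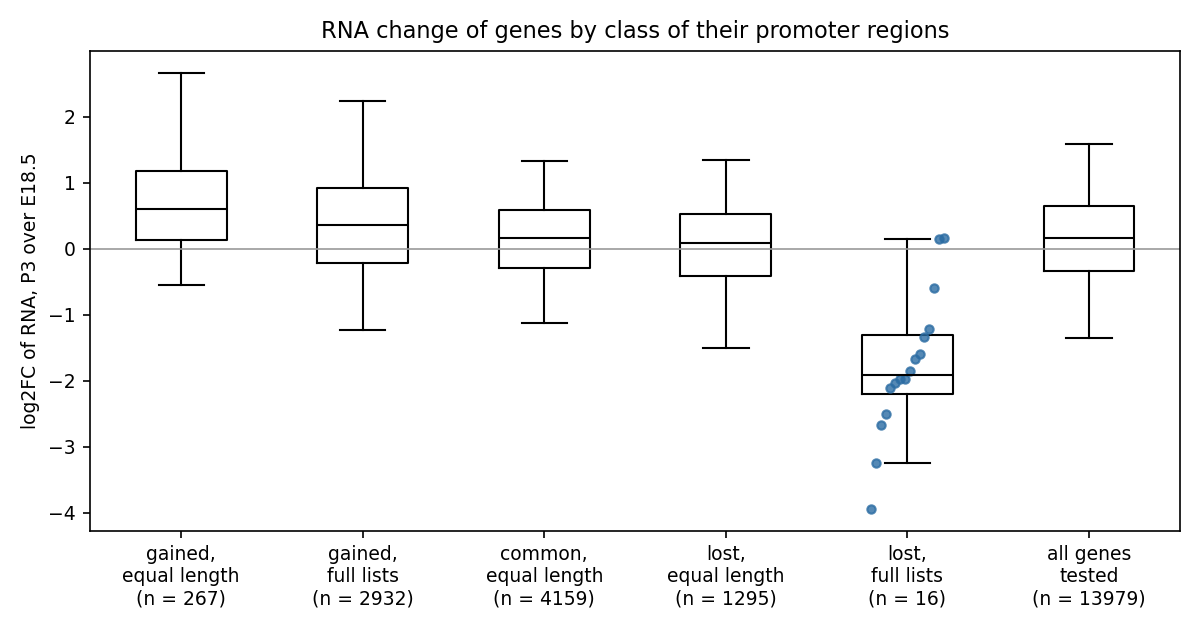
RNA change of genes by the class of their promoter regions. The vertical axis is the log2FC of FPKM, P3 over E18.5, boxes show quartiles and whiskers the 5th to 95th percentiles. Blue points are the 16 genes with lost and no gained or common promoter regions of the full lists. The gained genes of the equal lists sit above all genes tested (medians 0.59 and 0.16), and the 16 lost genes sit mostly below 0 (median −1.91).

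By the rule of largest change among genes with a gained promoter region of the equal lists, the leading genes included a collagen, a tubulin and an enzyme of glucocorticoid metabolism. Col8a1, a short-chain collagen, had 0.56 and 0.18 FPKM at E18.5 and 39.0 and 43.5 at P3, where its promoter region had fold enrichments of 6.70 and 8.10 (log2FC 4.96 ± 0.19, adjusted p = 7.3e-06). Tubb3, a tubulin, had 1.24 and 0.85 against 44.3 and 42.8 FPKM. Hsd11b1, the enzyme that regenerates active glucocorticoid, had 0.17 and 1.73 against 30.9 and 29.6 FPKM, with fold enrichments of 10.4 and 11.2 at P3. The ages did not overlap in any of these 3 genes.

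The next genes were smaller in size of change and alike in pattern. Lgals3bp, a secreted galectin-binding protein, went from 16.6 and 18.9 FPKM to 199 and 206. Nnmt, nicotinamide N-methyltransferase, went from 2.04 and 0.98 to 26.4 and 26.7. Pdlim2, Tmem45a, Gpr39, Fgd3 and Apol9a completed the 10, with log2FC between 3.41 and 3.92. Both P3 libraries were above both E18.5 libraries in 46.3% of all genes tested, so this order alone is common.

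The nearest tested genes of distal gained regions were called higher more often than the 13.0% of all genes, in each band of distance. Of 929 such genes within 20 kb of a gained non-promoter region of the equal lists, 222 were higher (23.9%) and 54 lower (5.81%), and of 855 genes more than 50 kb away, 171 were higher (20%). For common non-promoter regions the shares higher were 16.2% and 15.7%. In the full lists 18.3% were higher within 20 kb of gained and 16.7% within 20 kb of common regions. Around lost non-promoter regions of the equal lists, 31 of 222 genes within 20 kb were higher and 31 lower (14% each).

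In the full lists the number of cardiomyocyte genes with a promoter peak did not rise, while it rose in lists of other cell types. Single genes did change, with a gained region at 3 (Tnnt2, Tnni3 and Myl4) and a lost one at 2 (Actc1 and Ttn). Of all tested genes, 33.5% had a gained and 0.207% a lost promoter region in the full lists. Of 16 cardiomyocyte genes, 8 and 10 had a promoter peak at E18.5 and 7 and 7 at P3 in the full lists, although the share of all tested genes with one went from 66.8% and 62.2% to 91.5% and 87.4%. The equal lists gave counts of 8 and 10 against 1 and 1, while all genes went from 66.9% and 58.6% to 40.3% and 52.2%. Most other lists did not gain there either: fibroblast genes with a promoter peak went from 4 and 3 to 4 and 4, matrix genes from 9 and 9 to 5 and 8, endothelial genes from 4 and 4 to 1 and 0, epicardial genes from 1 and 1 to 2 and 1, and housekeeping genes from 11 and 11 to 4 and 8. The smooth muscle and pericyte list went from 0 and 0 to 2 and 3, and the macrophage list from 0 and 0 to 1 and 1. Of 12 fibroblast genes, 4 and 3 had a promoter peak at E18.5 and 11 and 11 at P3 in the full lists, and of 20 extracellular matrix genes 9 and 9 against 19 and 18. The full lists had smooth muscle and pericyte genes going from 0 and 0 to 9 and 6 of 10, the epicardial list from 1 and 2 to 8 and 6 of 8, the endothelial list from 4 and 5 to 11 and 9 of 12, and the macrophage list from 0 and 0 to 5 and 3 of 10. Of 12 housekeeping genes, taken as a reference, 11 and 12 had a peak at E18.5 and 12 and 11 at P3.

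**Figure D2:**
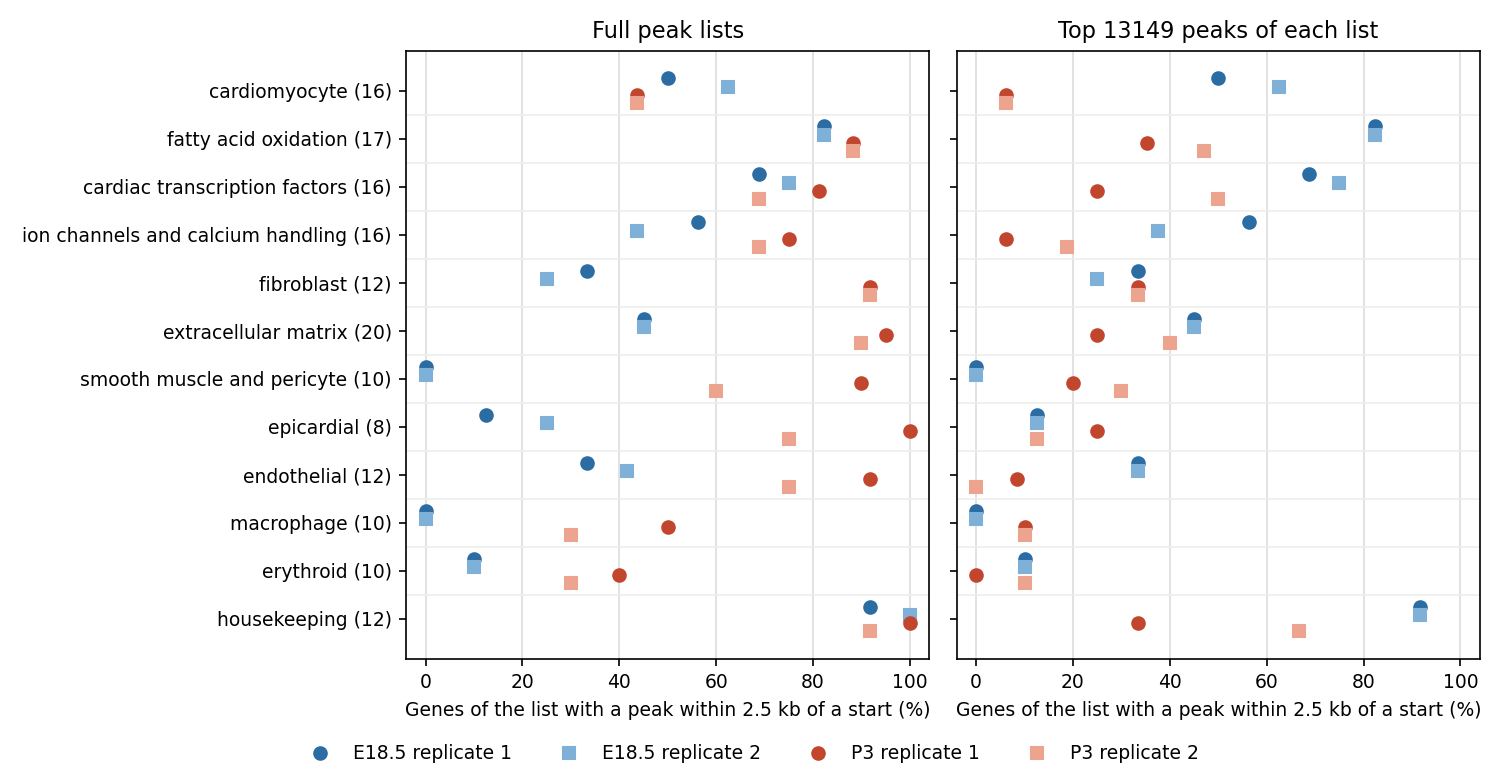
Genes of each list with a peak within 2.5 kb of a transcript start, in percent of the list (number of genes in brackets), in full lists (left) and in the top 13149 peaks of each library (right). Blue marks are E18.5 and red marks P3 libraries. In the full lists fibroblast, matrix, smooth muscle and epicardial genes have P3 marks to the right of E18.5 marks, while the cardiomyocyte list lies at 7 of 16 in both P3 libraries and at 8 and 10 at E18.5.

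The RNA of these lists moved in the same samples. Of all tested genes, 13.0% were called higher at P3 and 8.88% lower. Of the 16 cardiomyocyte genes, 14 fell and none rose (median log2FC −1.83), and their summed level was 31421 and 40656 FPKM at E18.5 and 10496 and 8430 at P3. Tnnt2, the cardiac troponin T gene and a defining marker, remained abundant at 6141 and 7172 against 2678 and 2299 FPKM. Of the 12 fibroblast genes, 7 rose and none fell (summed 607 and 613 against 1850 and 1926), and of the 20 matrix genes 16 rose and 1, Eln, fell (summed 1736 and 1537 against 4942 and 5606). The smooth muscle and pericyte sum was 431 and 560 against 1139 and 1302, with 2 of 10 genes higher and 3 lower, and the epicardial sum 145 and 149 against 214 and 176, with 4 of 8 higher and 1 lower. The endothelial sum of 622 and 339 against 692 and 786 had 3 of 12 genes higher and 2 lower. The macrophage sum of 57.9 and 52.3 against 63.8 and 50.1 overlapped between the ages, with 2 of 9 tested genes higher and 0 lower.

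Erythroid RNA moved further than any of these lists. The sum of its 10 genes was 21898 and 26738 FPKM at E18.5 and 10.2 and 11.0 at P3, with Slc4a1, Epb42 and Gata1 listed at 0 in at least 1 library. Among the 7 tested genes 6 fell and 1 rose. The globin genes Hba-a1, Hbb-bs and Hbb-bt had no promoter peak in any of the 4 ATAC-seq libraries. In such bulk samples, fewer cells of a type and less open chromatin or RNA per cell cannot be told apart, and the part of other cell types in the gained and lost regions was not tested.

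Among single fibroblast and matrix genes, Dcn, a matrix proteoglycan and fibroblast marker, had no promoter peak at E18.5 and fold enrichments of 6.98 and 6.96 at P3. Its RNA was 85.5 and 84.5 FPKM at E18.5 and 489 and 481 at P3 (log2FC 2.498 ± 0.10, adjusted p = 8.23e-06). Lox, the enzyme that cross-links collagen, had promoter peaks of 7.84 and 9.98 at P3 only and RNA of 5.29 and 5.30 against 57.2 and 54.5 FPKM (log2FC 3.17 ± 0.17, adjusted p = 1.77e-05). Tcf21, the fibroblast lineage factor, had peaks of 5.16 and 5.60 at P3 only and RNA of 7.28 and 9.33 against 60.02 and 37.4 FPKM.

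A gained peak did not always go with more RNA. Postn, the matricellular protein periostin, had promoter peaks of 8.08 and 8.64 at P3 only, among the top 13149 of both libraries, yet its RNA of 100.1 and 101.7 against 112 and 115 FPKM did not pass the test (adjusted p = 0.606). Dpt, dermatopontin, had peaks of 9.97 and 12.0 at P3 only and RNA of 13.9 and 11.4 against 9.01 and 10.03 FPKM (adjusted p = 0.313). Eln, the elastin gene, had peaks of 5.07 and 4.10 at P3 only while its RNA went from 97.0 and 158 to 32.7 and 22.5 FPKM (log2FC −2.15 ± 0.29, adjusted p = 0.000664). In the mural list, Tagln had peaks of 4.15 and 7.64 at P3 only with RNA of 15.5 and 18.9 against 320 and 355 FPKM, whereas Myh11, the smooth muscle myosin, had peaks of 10.3 and 9.28 at P3 only with RNA under 2 FPKM in every library.

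Most tested genes with a promoter region among the 119 lost in the full lists had lower RNA at P3. Of the 16 genes of the cardiomyocyte list, 2 (Actc1 and Ttn) had such a region, against 0.207% of all tested genes. Over all 119 lost regions, promoter or not, fold enrichments at E18.5 ranged from 3.10 to 11.98, at ranks of 424 to 14826. Of 29 tested genes with a lost region within 2.5 kb of a start, 19 were lower at P3 (65.5%), 1 was higher, and the median log2FC was −1.59, against 8.88% lower among all genes. For the 16 genes that had lost and no gained or common promoter regions, 13 were lower (81.2%). When each ATAC-seq library was left out in turn, 58.3% to 71.4% of such genes were lower. Csrp3, the muscle LIM protein of the Z disc, had promoter peaks of 4.90 and 6.37 at E18.5 and none at P3, and its RNA went from 605 and 927 to 82.3 and 73.6 FPKM (log2FC −3.25 ± 0.29, adjusted p = 0.000113).

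Ttn, the giant spring protein of the sarcomere, lost 2 regions, one at its start and one 484 bp into it, and the one at the start had fold enrichments of 4.55 and 5.24. Its RNA was 15.5 and 19.6 FPKM at E18.5 and 2.75 and 4.41 at P3 (log2FC −2.03 ± 0.30, adjusted p = 0.00108). Actc1, cardiac actin, had promoter peaks of 4.03 and 4.97 at E18.5 only and RNA of 5864 and 8565 against 1843 and 1753 FPKM. Nrap and Trim55, a thin filament assembly protein and a sarcomeric ubiquitin ligase, lost regions with fold enrichments of 5.61 and 6.32, and of 6.50 and 6.29, and their RNA fell by 1.97 and 1.67 on the log2 scale.

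Of the 17 fatty acid oxidation genes 1, Cpt1b, had a lost promoter region, and of the 19 glycolysis genes 0, against 0.207% of all tested genes. Cpt1b, the muscle carnitine palmitoyltransferase that admits fatty acids to mitochondria, had a promoter peak of 4.60 and 5.46 at E18.5 only and RNA of 130 and 162 against 20.2 and 30.2 FPKM (log2FC −2.502 ± 0.34, adjusted p = 0.000733). Cox6a2, the muscle subunit of cytochrome c oxidase, went from 749 and 913 to 153 and 109 FPKM, and Pdk2, a pyruvate dehydrogenase kinase, from 51.6 and 73.0 to 18.5 and 21.3. Nkx2-5, the cardiac homeobox factor, had promoter peaks of 4.72 and 4.48 at E18.5 only, and RNA of 93.1 and 109 against 46.5 and 39.0 FPKM (log2FC −1.22 ± 0.36, adjusted p = 0.0231). Cacna1h, a T-type calcium channel of the fetal heart, went from 5.22 and 6.91 to 0.41 and 0.87 FPKM.

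Of the 12 genes of the endothelial list 1 was in the same set, against 0.207% of all tested genes. Cldn5, a tight junction gene of endothelium, had a promoter region lost at P3 (fold enrichments 5.36 and 4.47) and RNA of 85.2 and 41.1 against 2.4996 and 3.40 FPKM, while a second peak within its 2.5 kb stood in P3 replicate 1. Itga3, an integrin, was the gene that rose, from 12.8 and 9.76 to 29.1 and 26.4 FPKM. The 9 tested genes that were not called included Chchd1, Phf10 and Kmt2a.

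**Figure D3:**
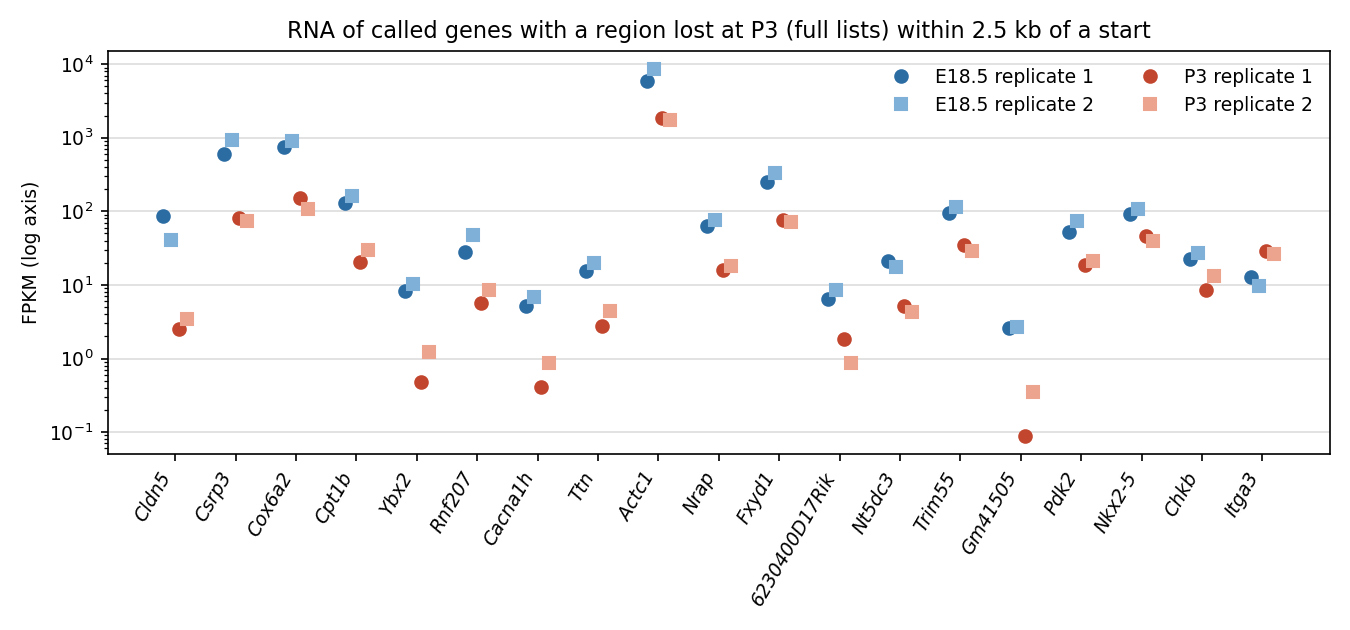
FPKM in each RNA-seq library (log axis) of the called genes with a region lost at P3 in the full lists within 2.5 kb of a start, blue for E18.5 and red for P3. Mir133a-1hg is not drawn, since it was listed at 0 in P3 replicate 2. In all genes drawn but Itga3 both P3 values lie below both E18.5 values, an order that 28.4% of all genes tested had.

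Of the 82 lost regions away from promoters, 4 are described with their nearest gene, that near Myl2 by the rule and the others as chosen after their values were seen. One lay at −7888 bp from the start of Myl2, ventricular myosin light chain, with fold enrichments of 5.84 and 9.06 at ranks 4325 and 746, and Myl2 RNA was 5267 and 6835 FPKM at E18.5 and 900 and 650 at P3 (log2FC −2.97 ± 0.40, adjusted p = 0.000712). The region at −21878 bp from the start of Nppb, the brain natriuretic peptide gene, had fold enrichments of 4.79 and 4.41, and Nppb RNA was 295 and 450 against 132 and 40.9 FPKM (log2FC −2.29 ± 0.57, adjusted p = 0.0113). The Rbm20 intron region had fold enrichments of 6.11 and 5.34, and RNA of Rbm20, the splicing factor of titin, fell by 1.78 on the log2 scale. A region at −15357 bp from the start of Hopx, a cardiac homeodomain gene, was lost as well, and Hopx RNA went from 195 and 208 to 40.8 and 27.8 FPKM (log2FC −2.54 ± 0.33, adjusted p = 0.000555).

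Within 20 kb of the distal lost regions, 4 of 29 nearest tested genes were lower (13.8%, against 8.88% of all genes) and 2 higher (6.9%, against 13.0%). Between 20 and 50 kb 4 of 15 were lower and 0 higher, and beyond 50 kb 5 of 38 were lower (13.2%) and 7 higher (18.4%). The other distal lost regions named by rank were near Wdr70, Ttll1, Colq and Gm33474, with fold enrichments of 6.18 to 7.74. Wdr70, Ttll1 and Colq RNA had log2FC of 0.21, 0.42 and −0.33, and Tgfbr3, the nearest tested gene to the region near Gm33474, had 0.85, and none was called.

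The share of regions with a given word differed between the groups. In the equal lists an AP1 word stood within 100 bp of the summit in 38.6% of gained regions (37 to 40.2), 4.98% of lost, 7.22% of common and 16.9% of all regions. Without P3 replicate 1, the library that stood apart, the share in gained regions was 31.4%. The full lists showed less: AP1 words stood in 24.3% of gained against 19.7% of all regions, and in 27.4% against 23.5% away from promoters, TEAD words in 9.2% against 7.77%, and MEF2 words in 2.1% against 2.16%. TEAD words stood in 14.2%, 4.26%, 3.45% and 6.77%, and RUNX words (TGTGGTT) in 7.04%, 1.58%, 2.34% and 3.58%. Letters of the same composition in a scrambled order (GTACTAC or GTAGTAC) stood in 0.635% of all regions. Promoters are rich in G and C: mean GC was 50.6% in gained, 62.7% in lost and 63% in common regions, and SP1 words (GGGCGGG) stood in 3.59%, 29.8% and 37.3%.

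Place and base content move with the class, so the non-promoter regions were set beside each other. There, AP1 words stood in 40.3% of gained, 9.56% of lost, 27% of common and 27.2% of all regions, and TEAD words in 14.4%, 9.73%, 11.1% and 10.3%. MEF2 words went the other way, with 1.96% of gained, 7.51% of lost, 2.95% of common and 3.01% of all non-promoter regions. They were not alone: words searched as TBX stood in 1.25% of gained, 4.44% of lost and 2.08% of all. In the same order ERR words stood in 2.85%, 5.8% and 3.54%, GATA words in 3.49%, 4.95% and 3.89%, and NKX2-5 words in 2.71%, 4.78% and 2.59%. RUNX, ETS, CTCF and CArG words were less frequent in lost than in all regions. The lost shares moved when E18.5 replicate 1 was left out, to 4.18% for MEF2, 5.38% for AP1 and 3.77% for TEAD. A lost region then needed a peak in replicate 2 alone at E18.5, and lost regions in all places numbered 5437 in place of 2104. By library, the non-promoter peaks of the top 13149 held an AP1 word in 18.5% and 11.8% at E18.5 and in 40.6% and 31.7% at P3, and a MEF2 word in 5.03% and 3.81% against 2.22% and 2.25%. The ages did not overlap for either word, with mean GC of 54.2% and 56% against 51% and 51.1%. Nor did they for TBX words (3.42% and 2.82% against 1.45% and 1.5%) or SP1 words (8.89% and 10% against 3.63% and 4.91%). TEAD, RUNX, ETS, ERR and CArG words did not overlap either, so most of the words searched separated the ages. GATA, NKX2-5, CTCF and CEBP words and the scrambled controls overlapped.

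**Figure D4:**
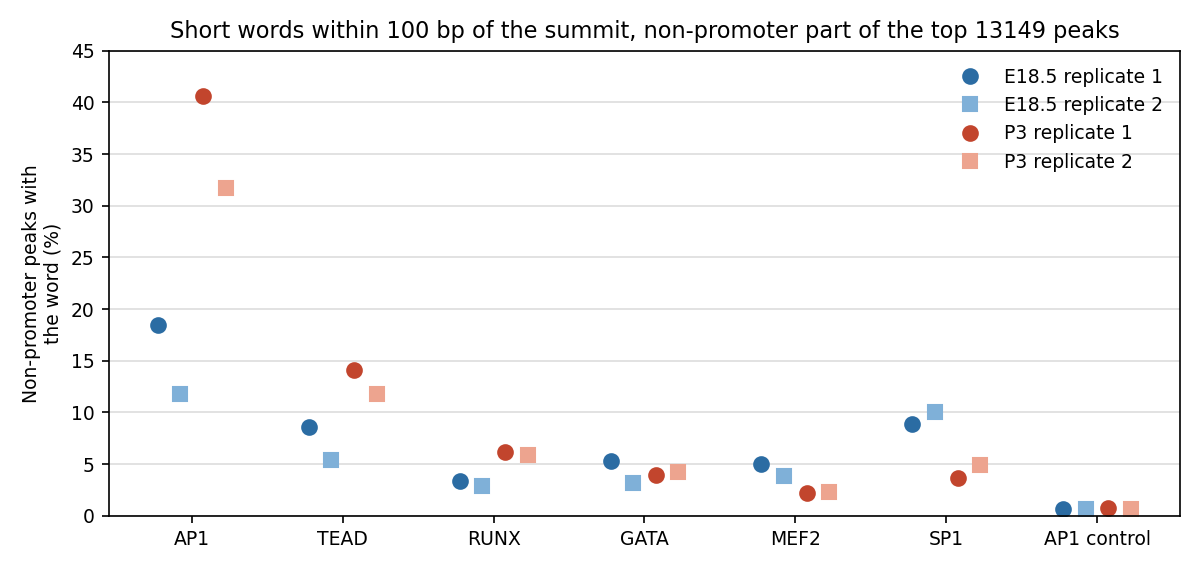
Percent of non-promoter peaks among the top 13149 of each library that hold a word within 100 bp of the summit, with GATA standing for AGATAAG and AP1 control for the scrambled letters. P3 libraries (red) lie above E18.5 libraries (blue) for AP1, TEAD and RUNX and below them for MEF2, and the AP1 control is near 0.65% in all 4.

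AP1 words sat close to the summit in gained regions. Of the words within 200 bp, 48.7% were within 50 bp in gained, 36.6% in common and 31.9% in lost regions, at median distances of 52, 71 and 86.5 bp. Among gained regions, a TEAD word was found in 9.82% of those with an AP1 word and in 16.9% of those without, and 52.7% held AP1, TEAD or RUNX. Genes within 50 kb were higher in 24.8% of cases where the gained region had an AP1 word and in 24.4% where it had none. The factors themselves did not rise together: of 12 AP1 family genes, 7 fell and none rose, among them Fos (160 and 182 against 5.22 and 6.95 FPKM) and Atf3 (142 and 205 against 8.14 and 6.78). Of all tested genes, 8.88% were called lower and 13.0% higher.

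In the 119 lost regions of the full lists a MEF2 word stood in 13 (10.9%, 6.5 to 17.8), against 2.16% of all regions, and an AP1 word in 3 (2.52%, against 19.7%). Without E18.5 replicate 1, where a peak in replicate 2 alone was asked for at E18.5, the MEF2 share was 3.29% of 2407 lost regions. It was 7.75% to 10.1% without each of the other libraries, while the AP1 share ranged from 1.46% to 5% without a library. The promoter regions among the 13 were those of Csrp3, Cox6a2, Rnf207, Chchd1 and 1700019J19Rik, and the distal ones included the regions near Nppb, Wdr70 and Ppp1r3b and the Rbm20 intron, which held 2 words. With so few regions each one moves the share by almost a percent. Of the MEF2 and class IIa histone deacetylase genes, 2 of 7 tested fell (Hdac5 and Hdac9) and none rose, against 8.88% and 13.0% of all tested genes. Mef2a had 20.4 and 17.7 against 14.3 and 14.8 FPKM (log2FC −0.36, below the fold set for a call).

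The P1 and P7 libraries show where these regions stood before and after, though they were called as separate lists and share the E18.5 and P3 regions as a base. Of the 3483 gained regions of the equal lists, 69.7% and 17.5% held a peak in the full P1 lists and 99.6% and 89.5% in the full P7 lists, against 64.4% and 32.6%, and 87.3% and 80.6%, of all regions of the equal lists. Of the 119 lost regions, 63.9% and 26.9% held one at P1, and 12.6% and 59.7% at P7. At the 37 lost promoters the P7 shares were 21.6% and 75.7%, among them Ttn, Csrp3, Actc1 and Nkx2-5, which held a peak in P7 replicate 2 and none in replicate 1. Common regions of the full lists held a peak in 99.1% and 98.6% at P7, gained ones in 70.4% and 43.4%, and all regions in 46.8% and 32.9%.

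**Figure D5:**
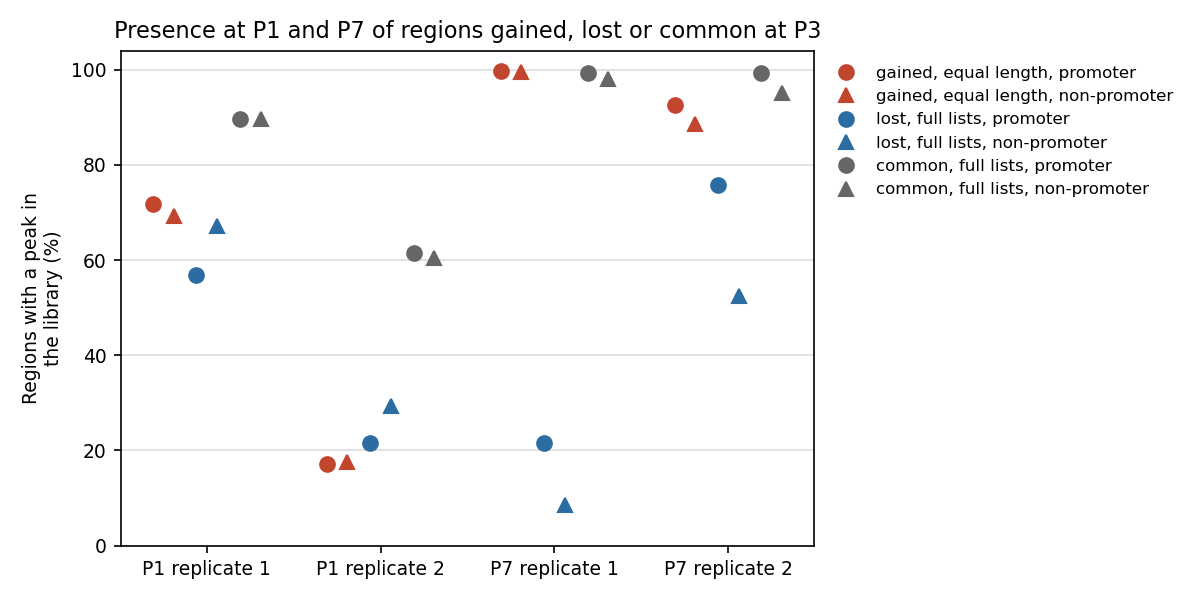
Percent of regions that hold a peak in the full list of each P1 and P7 library, for regions gained in the equal lists (red), lost in the full lists (blue) and common in the full lists (grey), with dots for promoter and triangles for non-promoter regions. Lost promoters hold a peak in 21.6% in P7 replicate 1 and 75.7% in P7 replicate 2, while gained regions lie near 90% or above in both. These sets come from lists of unlike length. Not drawn are gained regions of the full lists (70.4% and 43.4% at P7) and lost regions of the equal lists (87.8% and 90.4%).

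Heights were compared at the 9040 common regions as fold enrichment centred on each library's median, since the medians were 6.62 and 6.22 at E18.5 and 7.91 and 9.08 at P3. At an adjusted p under 0.05 by limma, 214 regions were higher at P3 (2.37%) and 367 lower (4.06%), and with quantile normalization 51 and 23 were. Promoters gave 102 higher and 252 lower of 7490 and non-promoters 112 and 115 of 1550, against 14 and 12, and 37 and 11, with quantile normalization, so the balance between the directions depends on the centring. The largest falls included the promoter of Anxa2, annexin A2, with fold enrichments of 3.69 and 5.29 against 2.06 and 2.09 (log2 difference −1.49 ± 0.18, adjusted p = 0.000369), while Anxa2 RNA of 296 and 263 against 562 and 518 FPKM did not fall. The largest rise at a promoter was at Zfp410, a zinc finger factor gene, with 5.31 and 5.65 against 15.8 and 17.3, and RNA of 21.1 and 22.3 against 19.4 and 20.9 FPKM. At neither gene did RNA move in the direction of the height.

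In the equal lists, genes that lost a promoter region by rank and fell in RNA were led by Fos, Cited1 and Tnni1. Tnni1, the slow skeletal troponin I of the fetal heart, had promoter fold enrichments of 6.03 and 6.07 at E18.5 and 6.07 and 4.06 at P3, at ranks 4610 and 3635 against 31772 and 46224. Its RNA was 1456 and 1832 FPKM at E18.5 and 111 and 83.9 at P3 (log2FC −4.07 ± 0.35, adjusted p = 0.000102). Gadd45b, a stress response gene, had promoter fold enrichments of 4.44 and 5.64 against 4.33 and 5.52 and RNA of 248 and 299 against 28.4 and 20.7 FPKM. At the Tnni1 and Gadd45b promoters fold enrichments overlapped between the ages. Their ranks could not overlap, since the rule took regions within the top 13149 at E18.5 and outside it at P3. At Fos the fold enrichments were 4.93 and 5.61 against 4.32 and 4.68. At Cited1, a transcriptional co-regulator gene, they were 6.92 and 5.52 against 9.18 and 7.30. Neither gene had overlap, and the directions were opposite. The gene Nnt, also in this set, is taken as uncertain, because overlapping gene models of that name could share reads, which was not tested.

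Tnni3, the cardiac troponin I that replaces Tnni1, showed how peak and RNA could part. It had no promoter peak at E18.5 and fold enrichments of 7.27 and 8.23 at P3, while its RNA went from 1590 and 2090 to 619 and 446 FPKM (log2FC −1.79 ± 0.40, adjusted p = 0.00714). Myh7, the fetal myosin heavy chain, had no promoter peak in any of the 4 libraries and went from 1620 and 2079 to 23.7 and 26.9 FPKM (log2FC −6.13 ± 0.31, adjusted p = 1.55e-05). Of the 17 fatty acid oxidation genes, 13 fell and none rose, against 8.88% and 13.0% of all tested genes. In the full lists 14, 14, 15 and 15 of them had a promoter peak. Pdk4, the fasting-induced pyruvate dehydrogenase kinase, kept strong peaks of 12.4, 11.4, 11.4 and 14.0 in the 4 libraries with RNA of 58.1 and 54.7 against 4.57 and 10.7 FPKM.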

How the data were processed

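The deposited ATAC-seq files were MACS2 peak lists, 1 per library. The authors trimmed reads with cutadapt, aligned them to mm10 with Bowtie2, removed duplicates with Picard and removed peaks in blacklisted parts of the genome. Per the deposited lists, each peak carries a score, a fold enrichment over local background, −log10 p-values and −log10 q-values, all as the authors' caller gave them. The deposited RNA-seq files hold FPKM and TPM, which the authors made with HISAT2 2.1.0 and StringTie 1.3.5 on GENCODE transcripts. Transcript starts came from those files (55450 genes).

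Genes at 1 FPKM or more in at least 2 of 8 mouse libraries were tested with limma 3.58.1 in R 4.3.3 on log2(FPKM + 1), a scale that understates the change of low genes, over all 8 mouse RNA-seq libraries. Heights were tested with limma on median-centred log2 fold enrichment. P-values were adjusted by Benjamini-Hochberg. Regions and words were handled in Python 3.11.15. The procedures were tested on simulated data. Named regions were the 5 of each class with the best worst rank, and named genes the 10 of each direction with the largest log2FC among called genes of the class. Members of the gene lists and the 5 largest rises and falls in height were named as well, whereas other genes at or near regions lost in the full lists (among them Hopx, Nppb and Rbm20) were chosen after their values were seen. The members, lists and alternatives were chosen with earlier results of these data known. Replicate numbers gave no sign of pairing libraries: correlations of same-numbered deviations were −0.0964 for RNA and −0.0558 for ATAC. With 2 libraries per age these values cannot show that the libraries were unpaired. Reads per ATAC-seq region were not analysed here, so no count test was run on peaks.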

Additional observations from a re-analysis of the deposited data

How the results depend on the processing

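Of 283 named genes with a test, 225 kept their call or lack of one in every alternative. Among those called in the main fit 0 reversed direction, and direction was not compared for genes without a call. The number of regions depended most on list length and on single libraries. Lists of equal length gave 3483 gained and 2104 lost in place of 35531 and 119, and a −log10 q of at least 5 left 51 lost. Leaving out a library gave 37771 to 79948 gained and 139 to 2407 lost in the full lists, and 3943 to 6599 and 2366 to 5437 in the equal lists. In the equal lists, gained regions came to 5451 where peaks had to cover at least 0.5 of a region and to 1192 for the top 5000 peaks, lost regions to 903 for the top 5000 and to 102 where no peak was allowed in the full lists of P3. As a replicate block, same-numbered pairs gave 82821 gained and 460 lost (pair 1) and 3181 lost (pair 2) in the full lists, and 7196 and 7025, and 6056 and 5853, in the equal lists. The correlations of same-numbered libraries give no sign that the numbers pair them, and the block on RNA or on heights left each count of calls within 1.5 times.

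The promoter shares of gained, lost and common regions were 9.388%, 64.4% and 79.07% with RefSeq protein-coding starts, 12.17%, 66.63% and 82.17% within 1 kb, and 29.63%, 75.48% and 86.95% within 5 kb, so their order held. In the same order, AP1 words stood in 46.6%, 8.43% and 10.6% with 200 bp either side, in 31.6%, 3.2% and 3.56% of promoter and 40.3%, 9.56% and 27.0% of non-promoter regions. MEF2 words stood in 4.25%, 5.7% and 1.77%, in 1.34%, 2.2% and 0.668% of promoter, and in 7.51% of lost and 2.95% of common non-promoter regions. Alternatives chosen after seeing the data left out each ATAC-seq library: AP1 in gained regions ranged from 31.4% to 40.7%, MEF2 in lost regions from 2.43% to 3.53%, and genes higher at gained promoters from 23.5% to 29.4%.

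Heights gave 51 higher and 23 lower with quantile normalization, and 38 to 389 and 178 to 533 without a library. TPM called 3139 genes higher. Genes higher at gained promoters came to 21.4% in the full lists, 25.1% with median-of-ratios and 44.9% with TPM. Genes lower at lost promoters, 10.7% in the equal lists, came to 13.7% there with median-of-ratios (11.6% of all genes). In the full lists they came to 81.2%, both with FPKM as deposited and with median-of-ratios, and TPM was not applied there. Against full P1 and P7 lists, gained regions of the equal lists were held in 99.6% and 89.5% at P7 and lost ones in 87.8% and 90.4%, in place of 75.4% and 43.8%, and 20.2% and 50.7%, with lists of equal length. Having 2 libraries per age, unknown ATAC-seq depth and short E18.5 lists limits every statement on absence: a region without a called peak can still be open.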

Other observations

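Cell cycle, inflammatory and fetal growth genes, not described above, had more promoter peaks at P3 than at E18.5 in the full lists, as did all tested genes (66.8% and 62.2% against 91.5% and 87.4%), and moved in RNA in both directions. The RNA of 13.0% of all tested genes was called higher and that of 8.88% lower. In the equal lists the numbers were 13 and 9 against 7 and 9 for cell cycle, 5 and 5 against 4 and 6 for inflammatory and 8 and 7 against 2 and 1 for fetal growth genes. Of 16 cell cycle genes, 13 and 11 had a promoter peak in the full E18.5 lists and 16 and 16 in the P3 lists, and 6 rose in RNA and none fell. Ccnd1, the G1 cyclin, had 11.7 and 9.07 FPKM at E18.5 and 53.9 and 60.3 at P3 (limma log2FC 2.36 ± 0.30, adjusted p = 0.0005), and Plk1, a mitotic kinase, had 18.5 and 25.4 against 55.5 and 57.8. Mki67, the proliferation antigen, had 15.04 and 18.5 against 17.6 and 19.1 FPKM and did not pass the test.

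Of 13 inflammatory genes, 5 and 6 had a promoter peak at E18.5 and 11 and 10 at P3, 5 rose and 4 fell. Il6 had peaks of 7.53 and 8.12 at P3 only and RNA of 3.39 and 4.63 against 15.7 and 15.8 FPKM (limma log2FC 1.75 ± 0.21, adjusted p = 0.000355). Saa3, an acute phase gene, had no promoter peak in any library and RNA of 5.43 and 2.14 against 352 and 288 FPKM. Icam1, an adhesion molecule, had peaks of 3.38 and 4.31 at P3 only while its RNA went from 249 and 176 to 47.8 and 52.8 FPKM. Among fetal growth genes, Hmga2, a chromatin protein of growing tissue, rose from 6.32 and 2.04 to 82.4 and 84.4 FPKM, whereas Igf2, H19, Dlk1, Cdkn1c and Plagl1 fell. Of 19 glycolysis genes, 7 fell and none rose, with promoter peaks for 17 and 15 at E18.5 and 19 and 19 at P3. These values are given without an explanation, and the part of the cell types in the samples was not tested.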
